A study of Mus musculus with 8 samples.

Results

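*Meis1*, *Meis2*, *Meis3*, *Pbx2* and *Pbx3* encode homeodomain transcription factors of the TALE class, and their transcripts were followed here in mesenchymal cells of the embryonic mouse forelimb. The 5 genes were chosen by symbol out of the 28001 features listed for every library, and each symbol matched 1 feature in all 8 libraries. Transcripts were counted as unique molecular identifiers (UMIs), tags that mark each captured molecule, in the 53085 cells that held at least 3000 UMIs and at most 10% mitochondrial UMIs. In all 8 libraries, *Meis1*, *Meis2* and *Meis3* were lower in cells with *Hoxa13* or *Hoxd13* transcripts than in cells without detected distal Hox transcripts. Counting intervals excluded 0 in 7, 7 and 4 of these. The 3 genes were also lower in the distal segment at E16.5, the proximal pattern that their name as proximal identity factors implies. *Pbx3* followed this pattern in the E11.5 whole limb but was higher in the distal library at E16.5, though not within every cell cluster. *Pbx2* differed little, with no measurable difference by Hox class in the whole limb and a slightly lower distal level at E16.5. Cells sorted for the lineage label at E11.5 nevertheless held less *Meis2* than cells of the whole limb.

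TALE proteins bind DNA together with Hox proteins and with each other, and Meis proteins pair with Pbx proteins, which they help to bring into the nucleus. In the early limb bud, Meis genes mark the part nearest the body, where retinoic acid from the flank sustains them, while fibroblast growth factors from the distal ectoderm oppose them. Cells farther out express *Hoxa11* and *Hoxd11*, which pattern the forearm (zeugopod), and *Hoxa13* and *Hoxd13*, which pattern the hand (autopod).

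The study traced cells that expressed *Hic1*, which encodes a transcriptional repressor, in C57BL/6J mice of both sexes that were labelled as homozygous for a CreERT2 allele at *Hic1* and for a Cre-dependent tdTomato reporter at *Rosa26*. Dams received 7.5 mg of tamoxifen at E10, so that tdTomato marked cells in which the *Hic1* locus was active then, together with their descendants. Sorted tdTomato+ cells made up 6 libraries, 1 for every stage from E11.5 through E12.5 and E13.5 to E14.5 and 1 each for the proximal and the distal forelimb segment at E16.5. The other 2 libraries, whole 1 and whole 2, held cells of whole E11.5 limbs that carried the same 2 alleles, had the same tamoxifen and were labelled as a mixture of tdTomato+ and tdTomato- cells. The proximal segment at E16.5 spanned the distal stylopod, the elbow and the proximal zeugopod, and the distal segment held the distal zeugopod and the autopod. Forelimbs of several embryos were pooled for a sorted library, and cells bearing blood and endothelial surface markers were removed in all sorts. No source used here says whether whole 1 and whole 2 came from separate litters, so the p-values below may measure technical spread only.

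Library totals ranged from 32957305 to 236408650 UMIs, with 3165 to 11109 cells kept and a median of 6788 to 18473 UMIs per kept cell. The v2 reagent kit was used through E13.5 and the v3 kit from E14.5 on, so differences between these 2 sets of stages cannot be told apart from the kit. Dispase was used for E11.5 and E12.5 and a collagenase and pronase mix from E13.5 on. The steps from E11.5 to E12.5 and from E14.5 to E16.5 thus lie within 1 kit and 1 type of enzyme, and the others do not. The E14.5 forelimbs were not divided, whereas each E16.5 library was 1 segment, so stage cannot be told apart from segment in that step. The summed CPM (a gene's UMIs scaled to 1 fixed total for every library) of *Hic1* and tdTomato was 458 to 1436 in the sorted libraries and only 4.54 and 5.11 in whole 1 and whole 2, which were therefore nearly free of the label. All 4 general limb mesenchyme markers were detected in every library, and so was *Tbx5*, a forelimb gene. At most 1.04% of the barcodes of the smaller library were shared between any pair of libraries. A list of 7 red cell genes summed to 99.0 CPM in whole 1 against 4.22 in whole 2, and to 109 and 75.7 CPM in the proximal and distal E16.5 libraries, and the part of free RNA in the results was not tested. Values below are for mesenchymal cells, after clusters of muscle precursor, epithelial, endothelial, immune, red cell or glial character had been left out. In such sums, fewer expressing cells and less RNA per cell cannot be told apart.

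In the GRCm38 build, *Meis1* (ENSMUSG00000020160) lies at chr11:18879817-19018985 on the minus strand and *Meis2* (ENSMUSG00000027210) at chr2:115863064-116065839 on the minus strand. *Meis3* (ENSMUSG00000041420) lies at chr7:16175090-16186504 on the plus strand. *Pbx2* (ENSMUSG00000034673) lies at chr17:34591266-34597400 on the plus strand and *Pbx3* (ENSMUSG00000038718) at chr2:34171457-34373142 on the minus strand. RefSeq promoter windows (250 bases before to 50 after the start, build GRCm38.p6) were found for 4 of the 5 genes. They are shown because *Meis1*, *Meis2* and *Meis3* moved together in the comparison of Hox classes, whereas *Pbx2* did not. Only the stretch of each window outside annotated exons is printed, 5′ to 3′ on the strand of the gene, with CpG dinucleotides in capitals. For *Meis2*, *Meis3* and *Pbx2* the RefSeq start used differs from the outer end of the gene, so their stretches lie inside the gene spans given above. The stretches were chr11:19018986-19019219 (minus strand), chr2:116064722-116064801 (minus strand), chr7:16175185-16175274 (plus strand) and chr17:34592009-34592262 (plus strand), in this order.
Meis1: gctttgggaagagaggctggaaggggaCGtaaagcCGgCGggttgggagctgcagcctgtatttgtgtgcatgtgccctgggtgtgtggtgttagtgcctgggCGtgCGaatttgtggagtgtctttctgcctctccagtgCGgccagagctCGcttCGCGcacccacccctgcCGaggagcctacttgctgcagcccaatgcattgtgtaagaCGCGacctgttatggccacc
Meis2: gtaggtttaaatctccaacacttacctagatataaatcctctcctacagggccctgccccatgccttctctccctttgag
Meis3: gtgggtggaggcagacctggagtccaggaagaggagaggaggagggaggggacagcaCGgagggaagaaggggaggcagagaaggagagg
Pbx2: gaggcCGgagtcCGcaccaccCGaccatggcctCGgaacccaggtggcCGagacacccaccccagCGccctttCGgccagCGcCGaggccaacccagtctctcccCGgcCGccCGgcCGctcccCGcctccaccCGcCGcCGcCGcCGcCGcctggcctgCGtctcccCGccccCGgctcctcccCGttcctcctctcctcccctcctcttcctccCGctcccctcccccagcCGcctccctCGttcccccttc
The *Pbx2* stretch of 254 bases held 27 CpG sites at 77.2% GC and the *Meis1* stretch of 234 bases held 12 at 60.3%. The *Meis2* stretch held 0 CpG sites in 80 bases and the *Meis3* stretch 1 in 90. Because the stretches differ in length and in place relative to the gene, these counts do not compare the promoters. Any relation to the Hox class differences was not tested. None of the 4 whole windows contained TGACAG (the Meis motif), TGATTGAC (Pbx and Meis sites side by side) or AGGTCA (the retinoic acid receptor motif core) on either strand. These letters were present in 19.2%, 0.770% and 16.3% of all 32851 windows of 300 bases, and their absence here describes only this window.

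The first question was how the members changed with stage in the tdTomato+ lineage. *Meis1* and *Meis2* were several-fold lower by E13.5 than at E11.5, *Meis3* was higher, and *Pbx2* and *Pbx3* moved little between these stages. Later, *Pbx2* went from 71.1 CPM in E14.5 cells to 42.7 in proximal E16.5 cells, where stage cannot be told apart from segment. Each sorted stage was 1 library, so no test was possible and the 95% Poisson intervals cover counting error only.

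*Meis1*, a Hox cofactor also known for its role in blood stem cells, was at 33.6 CPM (interval 31.6 to 35.7) in sorted E11.5 cells and dropped to 14 by E12.5 and 8.04 by E13.5, with 9.92 in E14.5 cells. At E16.5 it was at 13.2 CPM proximally and 4.12 distally. Ordered by level, the sorted libraries ran from E11.5 through E12.5, E16.5 proximal, E14.5 and E13.5 to E16.5 distal, and among these neighbours only the intervals of E12.5 (12.9 to 15.1) and E16.5 proximal (12.7 to 13.8) overlapped. The level at E13.5 was 4.18-fold lower than at E11.5, a log2 difference of -2.06 (-2.24 to -1.89).

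*Meis2*, a close relative of *Meis1* that is also needed in neural crest derivatives, was at 85.4 CPM (82.2 to 88.7) in sorted E11.5 cells, 28.3 by E12.5, 19.1 by E13.5 and 24.0 in E14.5 cells. Its E16.5 levels were 36.3 CPM proximally and 8.26 distally. No intervals of neighbours in this order overlapped, and the level at E13.5 was 4.48-fold lower than at E11.5. The share of cells with a *Meis2* UMI, with every cell thinned to 3000 UMIs, went from 10.2% to 5.01%, a log2 difference of -1.03 against -2.16 for the CPM. *Meis2* was thus found in fewer cells and also at fewer UMIs in each: cells with a UMI held 1.83 UMIs on average at E11.5 and 1.18 at E13.5, and 78 of 3156 cells at E11.5 but 9 of 6123 at E13.5 held 3 or more.

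*Meis3*, known for its part in hindbrain patterning, moved the other way. It was at 3.74 CPM (3.09 to 4.48) in sorted E11.5 cells, 4.66 by E12.5, 8.33 by E13.5 and 11.3 in E14.5 cells. The E16.5 values were 17.3 CPM proximally and 6.82 distally. *Meis3* at E13.5 was 2.23-fold above its E11.5 level, whereas the intervals of E11.5 and E12.5 (4.04 to 5.34) overlapped.

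*Pbx2*, a broadly expressed partner of Meis and Hox proteins, was at 60.4 CPM (57.7 to 63.2) in sorted E11.5 cells, 61.7 in E12.5, 53.8 in E13.5 and 71.1 in E14.5 cells. Proximal and distal E16.5 cells had 42.7 and 36.8 CPM. *Pbx3*, a related partner, was at 38.6 CPM (36.5 to 40.9) in sorted E11.5 cells, 37.2 in E12.5, 30.4 in E13.5 and 35.8 in E14.5 cells. It was at 30.2 CPM proximally and 36.8 distally at E16.5, where both genes happened to have 5781 UMIs in the distal library but in different numbers of cells (896 for *Pbx2* and 857 for *Pbx3* after thinning). Between E11.5 and E13.5, *Pbx2* fell by 0.17 and *Pbx3* fell by 0.35 on the log2 scale, and the intervals of E11.5 and E12.5 overlapped for both.

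**Figure D1:**
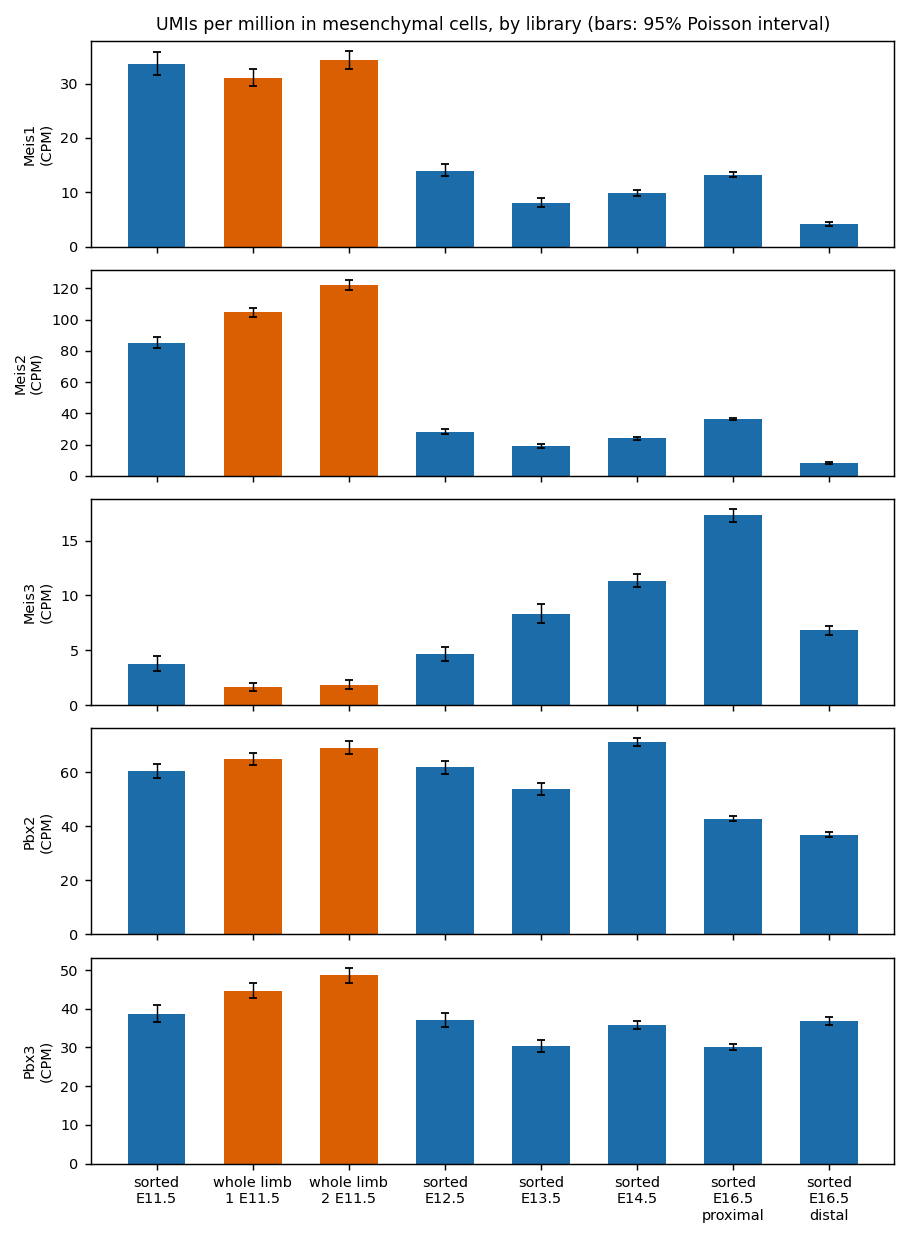
CPM of each member (vertical axis, from 0) in the mesenchymal cells of the 8 libraries (horizontal axis), with sorted libraries in blue, whole limb libraries in orange and error bars for the 95% Poisson interval. *Meis2* runs from 122 CPM in whole 2 to 8.26 in sorted E16.5 distal cells, while *Pbx2* stays between 36.8 and 71.1.

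*Meis1* and *Meis2* were often found in the same cells. At 3000 UMIs per cell, 29.9% of the sorted E11.5 cells with a *Meis1* UMI also had a *Meis2* UMI, against 8.51% of those without. The corresponding shares were 55.1% and 16.1% in whole 1 and 54.1% and 18.1% in whole 2. In the later sorted libraries 10.1% to 17.9% of the *Meis1* cells had *Meis2*, against 1.99% to 8.91% of the others, so that the share was higher in *Meis1* cells in all 8 libraries. *Pbx3* was also found in a larger share of cells with a *Meis2* UMI than of those without in all 8 libraries, with 17.6% against 11.7% in whole 1 and 15.4% against 10.1% in the distal E16.5 library. For *Pbx2* and *Meis2* the direction differed between libraries, at 18.3% against 15.9% in sorted E11.5 cells and 8.0% against 10.7% in the distal E16.5 library. These shares describe cells within a library, which are not replicates.

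The next comparison asked how tdTomato+ cells differed from whole-limb mesenchymal cells at E11.5. The sorted library was set against whole 1 and whole 2 with edgeR's quasi-likelihood test and Benjamini-Hochberg adjustment at 0.05. Relative to the whole limb, sorted cells had less *Meis2*, *Pbx2* and *Pbx3* and more *Meis3*. There was 1 residual degree of freedom, and the lone sorted library was assumed to vary like the whole limb libraries.

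*Meis2* was at 85.4 CPM in the sorted library and at 105 and 122 in whole 1 and whole 2. *Meis3* was at 3.74 CPM against 1.63 and 1.85, and *Pbx3* at 38.6 against 44.7 and 48.6. In each case the sorted value lay outside both whole limb values. *Meis1* was at 33.6 CPM between 31.1 in whole 1 and 34.4 in whole 2, and *Pbx2* was at 60.4 CPM below 64.7 and 68.9.

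By edgeR, *Meis2* was lower in sorted cells by a log2 fold change of -0.59 ± 0.095 (SE, adjusted p = 4.53e-09), a 1.51-fold difference. The difference was larger with every cell thinned to 3000 UMIs, at -1.26 (edgeR adjusted p = 3.44e-28). *Meis3* was higher by 0.92 ± 0.23 (adjusted p = 0.000226), but DESeq2 did not call it (adjusted p = 0.109). *Pbx3* changed by -0.45 ± 0.11 (adjusted p = 0.000273) and *Pbx2* by -0.33 ± 0.098 (adjusted p = 0.00239) in the edgeR fit. With no filter on low counts, edgeR called none of *Meis2* (adjusted p = 0.0586), *Pbx2* (0.0782) and *Pbx3* (0.0600). *Meis1* was not called, at -0.14 ± 0.12 (adjusted p = 0.345, 95% interval -0.39 to 0.10), but it passed with every cell thinned to 3000 UMIs (-0.46, adjusted p = 0.00242). The 4 called members stand against a background of 53.3% of the 15066 genes tested (32.0% by DESeq2), so the share of members called is not a result particular to them.

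Because whole limbs include distal cells, the comparison was repeated in cells without a UMI of *Hoxa11*, *Hoxd11*, *Hoxa13* or *Hoxd13* at 3000 UMIs. These were 2245 sorted cells and 2474 and 2686 cells of whole 1 and whole 2. Cells whose transcripts of these Hox genes went undetected can remain among them. Here the sorted cells had less *Meis1*, *Meis2* and *Pbx3*. *Meis1* was at 38.9 CPM in sorted cells against 55.8 and 58.4 in whole 1 and whole 2, *Meis2* at 99.4 against 191 and 209, and *Pbx3* at 39.4 against 62.5 and 64.5. The sorted value was below both whole limb values for all 3 genes.

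Restricted in this way, *Meis2* changed by -1.15 ± 0.10 on the log2 scale (edgeR, adjusted p = 9.81e-29), which is a 2.22-fold lower level, and by -1.76 with every cell thinned to 3000 UMIs. *Meis1* changed by -0.70 ± 0.12 (adjusted p = 2.28e-08) and *Pbx3* by -0.83 ± 0.12 (adjusted p = 1.96e-11) in the same edgeR fit. *Meis3* (0.52 ± 0.24, edgeR adjusted p = 0.0615) and *Pbx2* (-0.22 ± 0.11, adjusted p = 0.0738) did not pass. The 3 called members compare with 48.9% of the 13923 genes tested by edgeR and, for the same 3 genes, with 22.5% by DESeq2. In all 11 alternative fits that gave a test, *Meis1*, *Meis2* and *Pbx3* were called lower, although 1 of these fits, without mitotic-like cells, left out such cells almost only from the whole limb.

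Position along the limb was then examined within each library, through the Hox genes that a cell expressed. Hox13-positive cells had a UMI of *Hoxa13* or *Hoxd13* at 3000 UMIs, and Hox11-only cells had *Hoxa11* or *Hoxd11* but neither Hox13 gene. Negative cells had no UMI of the 4 at that depth, so they can still express them. They were 48.7% and 50.4% of the mesenchymal cells of whole 1 and whole 2 and 71.1% of sorted E11.5 cells. In the distal E16.5 library, from the distal zeugopod and the autopod, they were 52.4%. The members took no part in the call. *Meis1*, *Meis2* and *Meis3* were lower in Hox13-positive cells, *Pbx2* was not called, and *Pbx3* was lower mainly in the whole limb libraries.

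Hox13-positive cells were 22.1% and 20.8% of the mesenchymal cells of whole 1 and whole 2. In sorted cells the share was 1.68% for E11.5 (53 cells), 3.5% for E12.5, 6.48% for E13.5 and 17.0% for E14.5, and at E16.5 it was 0.580% proximally (59 cells) and 25.8% distally. Among cells outside the mesenchyme it was 3.70% (11 of 297 muscle precursor-like cells of whole 1) and 3.20% (9 of 281 of whole 2), at medians of 13076 and 12176 UMIs per cell unthinned, against 8709 and 8442 in the mesenchymal cells. Among epithelial-like cells it was 0 of 700 in the proximal E16.5 library, a count whose 95% interval reaches 0.526%, and it was also 0 in the 65 and 61 such cells of the E14.5 and distal E16.5 libraries. The shares in sorted E11.5 and E12.5 cells are thus below or near those of muscle precursor-like cells, in which free RNA and expression of these genes cannot be told apart. Muscle precursor-like cells were measured only in the whole limb libraries, which hold more Hox13-positive cells, so the background of the sorted libraries may differ. The share in proximal E16.5 cells is close to the limit from epithelial-like cells. The test below was also run without these 3 libraries.

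At E11.5, *Meis1* in whole 1 was at 55.8 CPM in negative, 15.5 in Hox11-only and 6.39 in Hox13-positive cells. Whole 2 gave 58.4, 18.0 and 7.85 CPM, and sorted E11.5 cells 38.9, 21.6 and 9.82, where the last value rests on 7 UMIs. The order was the same in all 3 libraries. For *Meis2* the 3 classes were at 191, 50.7 and 18.5 CPM in whole 1, at 209, 61.9 and 28.0 in whole 2 and at 99.4, 51.8 and 42.1 in the sorted library.

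*Pbx3* went from 62.5 through 38.9 to 21.1 CPM over the same classes in whole 1 and from 64.5 through 45.3 to 22.1 in whole 2. In sorted E11.5 cells its levels were 39.4, 37.1 and 30.9 CPM, with overlapping intervals. *Pbx2* showed no ordered change in the whole limb, at 65.0, 63.7 and 65.4 CPM in whole 1 and 68.5, 71.0 and 67.3 in whole 2. In sorted E11.5 cells it was at 63.1 CPM (59.8 to 66.4) in negative, 53.8 (48.9 to 59.0) in Hox11-only and 53.3 (37.7 to 73.2) in Hox13-positive cells, and the first 2 intervals did not overlap.

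**Figure D2:**
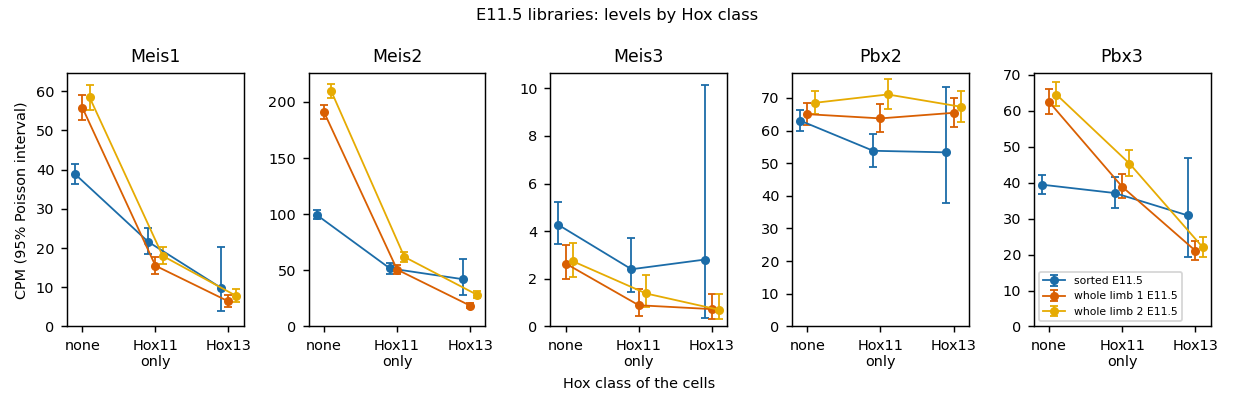
CPM of each member (vertical axis, from 0) in the 3 E11.5 libraries (colours), with error bars for the 95% Poisson interval. The horizontal axis gives cells with no UMI of the 4 Hox genes, with Hox11 genes only and with a Hox13 gene. *Meis1*, *Meis2* and *Pbx3* fall from left to right in both whole limb libraries, and *Pbx2* stays between 63.7 and 71.0 CPM there.

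Across all 8 libraries, *Meis1* was lower in Hox13-positive than in negative cells in 8 of 8, with log2 ratios from -3.18 to -0.48, and the counting interval excluded 0 in 7. The largest difference was at E13.5, 1.06 against 9.59 CPM, but it rests on 3 UMIs (log2 ratio -3.18, interval -5.47 to -1.62). *Meis2* was also lower in 8 of 8 (7 by interval), from -3.37 in whole 1 to -0.30 in proximal E16.5 cells. *Meis3* was lower in 8 of 8 (4 by interval), from -1.97 to -0.50, with only 2 UMIs in the sorted E11.5 class. *Pbx3* was lower in 7 of 8 (4 by interval), at -1.57 and -1.55 in whole 1 and whole 2 and between -0.66 and 0.07 in the sorted libraries. *Pbx2* lay between -0.24 and 0.11, was lower by interval in 0 libraries and was higher in 1, the distal E16.5 library (0.11, interval 0.018 to 0.20).

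An edgeR fit over the 16 sums, 2 per library, with library as a block took these differences across libraries. *Meis1* was lower in Hox13-positive cells by a log2 fold change of -2.37 ± 0.27 (adjusted p = 0.00101), a 5.17-fold difference. *Meis2* changed by -2.04 ± 0.30 (edgeR adjusted p = 0.00584), a 4.12-fold difference, and *Meis3* by -1.15 ± 0.18 (adjusted p = 0.00946), 2.22-fold. *Pbx3* (-0.65 ± 0.19, edgeR adjusted p = 0.0911) and *Pbx2* (-0.06 ± 0.18, adjusted p = 0.937, interval -0.40 to 0.29) were not called. The edgeR standard error of *Pbx2* is imprecise, as DESeq2 and limma-voom gave 0.053 and 0.044. The 3 called members compare with 2.93% of the 13715 genes tested, 2.38% lower and 0.547% higher (4.98% in either direction by DESeq2). The libraries differ in stage, so the spread in this fit includes differences between stages.

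Without the library block edgeR called 0 genes (221 at an unadjusted p under 0.05), and *Meis1*, *Meis2* and *Meis3* had log2 fold changes of -2.29, -2.14 and -0.99. All alternatives that kept the block called *Meis1* and *Meis2*. With at least 2 Hox13 UMIs asked of a positive cell, their log2 fold changes were larger, at -3.60 and -3.35 (edgeR adjusted p = 0.00473 and 0.0247). Each fit kept only libraries with at least 50 cells in both classes, so this one can hold fewer libraries than the main fit. With only the 5 libraries in which over 5% of the cells were Hox13-positive, a setting chosen after seeing the data, 0.543% of genes were called, and *Meis3* had an edgeR adjusted p of 0.0637 at a log2 fold change of -1.31. Mitotic-like cells were 35.2% of the Hox13-positive and 22.6% of the negative cells at E12.5, 22.0% and 10.7% in proximal E16.5 cells and, the other way round, 3.94% and 7.12% in distal E16.5 cells. Dermal fibroblast-like cells, the group with the highest *Meis1* and *Meis2* levels among named mesenchymal groups, were 2.61% of the Hox13-positive and 19.0% of the negative cells at E14.5 and 4.91% and 18.5% in distal E16.5 cells, and their part in the differences was not tested. With the cells named mitotic-, chondrocyte- or tenocyte-like left out, the log2 fold changes were -2.69 for *Meis1* (edgeR adjusted p = 0.000539), -2.33 for *Meis2* (0.00558) and -1.25 for *Meis3* (0.0185). Of the 59 Hox13-positive proximal E16.5 cells, 22.0% were mitotic-, 8.47% tenocyte- and 1.69% chondrocyte-like. Without these cells that library fell below 50 cells in the class and left this fit. With all cells but without that library, the log2 fold changes were -2.52, -2.23 and -1.23.

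The Hox13 difference itself was larger in whole limb than in sorted libraries for *Meis2* and *Pbx3*. In an edgeR interaction test added after seeing the data, the whole limb difference minus the sorted one was -1.59 ± 0.34 for *Meis2* (adjusted p = 0.0154) and -1.29 ± 0.17 for *Pbx3* (adjusted p = 0.000833). *Meis1* (-1.02, edgeR adjusted p = 0.176), *Meis3* (-0.87, adjusted p = 0.274) and *Pbx2* (0.08, adjusted p = 0.870) were not called, against 6.48% of all genes. Both whole limb libraries are from E11.5 but the sorted ones span E11.5 to E16.5, so this test mixes sort with stage. At E11.5 itself, the difference in sorted cells was -1.24 (interval -1.81 to -0.72) for *Meis2* and -0.35 (-1.04 to 0.25) for *Pbx3*. These values rest on 53 Hox13-positive cells, and the parts of sort and stage were not tested. In the whole limb libraries alone, where edgeR called 46.3% of the genes, *Pbx3* was at -1.54, and in the sorted libraries alone (2.39% called) it was at -0.27 (adjusted p = 0.226).

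**Figure D3:**
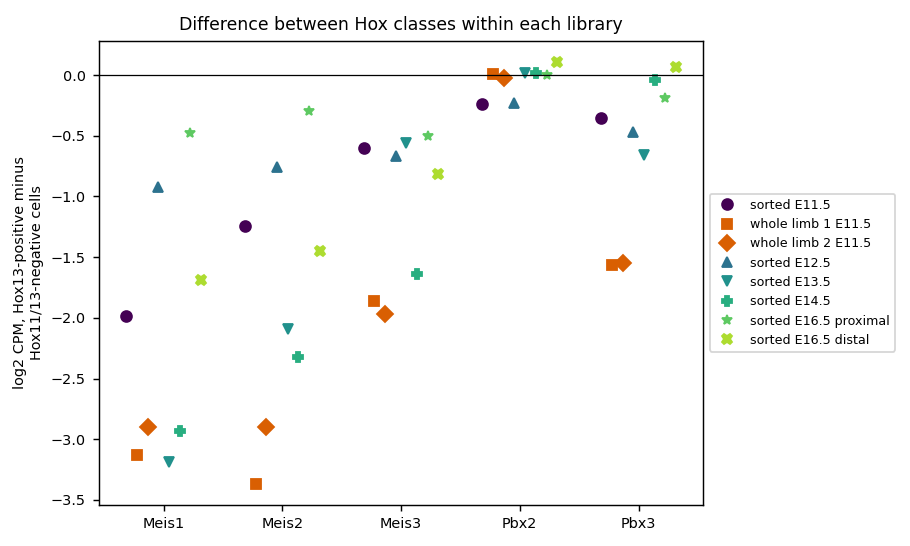
Difference in log2 CPM between Hox13-positive and Hox11/13-negative cells (vertical axis) for each member (horizontal axis), with 1 point per library and a line at 0. Points for *Meis1*, *Meis2* and *Meis3* lie below 0 in all 8 libraries, *Pbx2* points lie between -0.24 and 0.11, and *Pbx3* points of whole 1 and whole 2 lie apart from those of the sorted libraries.

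Clusters of the whole limb showed the same ordering at finer grain. Members and Hox genes had been left out of the clustering, and no cluster here bears a cell type name except where given. Cluster 5, led by *Pax1*, *Irx3* and *Irx5*, had the highest levels, with *Meis1* at 120 CPM in whole 1 and 124 in whole 2 and *Meis2* at 452 and 462. Cluster 8, also led by *Pax1* and *Irx3*, had *Meis2* at 293 and 344 CPM and the highest *Pbx3* level, 88.2 and 84.8.

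At the other end, clusters 4 and 12 were led by *Tfap2b* and *Evx2*. In cluster 4, *Meis2* was at 3.24 CPM in whole 1 and 3.60 in whole 2, and *Pbx3* at 14.7 and 19.0. Cluster 12 had *Meis1* at 1.59 and 2.58 CPM. *Pbx2*, by contrast, ranged only from 50.1 to 71.6 CPM over all clusters of whole 1 and from 53.2 to 75.7 in whole 2, and both of its lowest values were in the muscle precursor-like cluster, in which *Pbx3* was at 80.0 and 77.1 CPM.

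Over 11 mesenchymal clusters, the log2 level of each member was set against the summed level of *Hoxa13* and *Hoxd13*. Pearson's r was -0.92 and -0.95 for *Meis1* in whole 1 and whole 2, -0.89 and -0.88 for *Meis2*, -0.72 and -0.75 for *Meis3*, -0.92 and -0.96 for *Pbx3* and -0.23 and -0.36 for *Pbx2*. Over the clusters of the sorted libraries, r for *Meis1* ran from -0.74 at E13.5 to -0.14 in proximal E16.5 cells. For *Meis2* it ran from -0.70 in distal E16.5 cells to -0.23 at E12.5, and for *Meis3* from -0.95 at E11.5 (3 clusters) to -0.17 in proximal E16.5 cells. For *Pbx3* it ran from -0.76 at E13.5 to 0.32 in distal E16.5 cells. The clusters of a library share its depth and their cells are not replicates, so r is given as a description only. Sorted E11.5 cells mostly fell into clusters of their own. Their *Meis2* level ran from 150 CPM in cluster 7 to 5.59 in cluster 9, which was led by *Ntrk2*, *Pamr1* and *Aldh1a2*, the last of which makes retinoic acid. The summed Hox13 level was low in both, at 4.81 CPM in cluster 7 and 6.96 in cluster 9. It was 7.04 CPM in cluster 2, where *Meis2* was at 89.2.

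**Figure D4:**
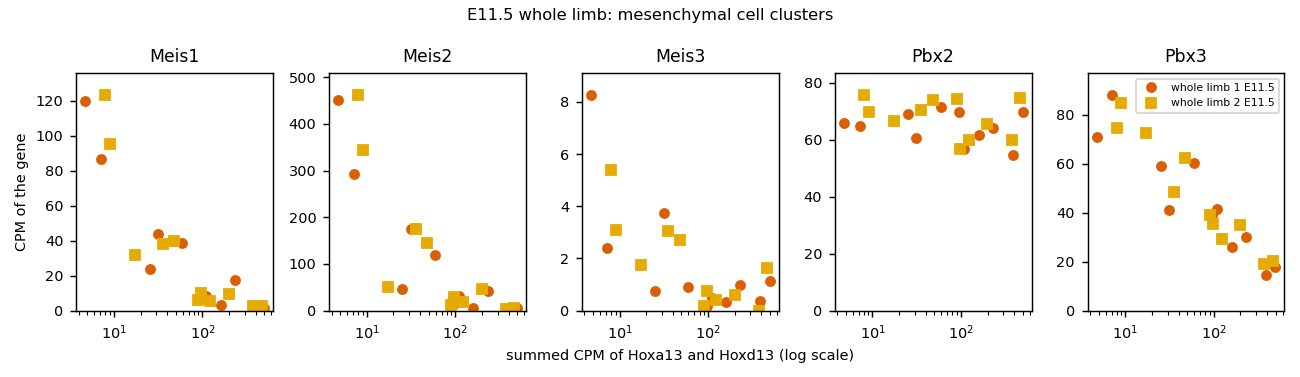
CPM of each member (vertical axis, from 0) against the summed CPM of *Hoxa13* and *Hoxd13* (horizontal axis, log scale), with 1 point per mesenchymal cluster of whole 1 (circles) and whole 2 (squares). *Meis1*, *Meis2* and *Pbx3* are lowest in the clusters with the most Hox13 transcripts, and *Pbx2* stays above 50 CPM in all of them.

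The segments at E16.5 gave a dissected measure of position, with 1 library each and no test. *Meis1*, *Meis2* and *Meis3* were lower in the distal library and *Pbx3* was higher. The log2 ratio of distal over proximal was -1.68 (interval -1.81 to -1.56) for *Meis1*, -2.13 (-2.22 to -2.05) for *Meis2* and -1.34 (-1.44 to -1.24) for *Meis3*. These are 3.21-fold, 4.39-fold and 2.53-fold lower levels. *Pbx2* was at -0.21 (-0.26 to -0.16) and *Pbx3* at 0.29 (0.24 to 0.34), a 1.22-fold higher distal level. Segment cannot be told apart from library here, and Cell Ranger versions differed between the 2 libraries.

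Cell groups were named "-like" from marker genes, and 7 named groups and the pool of unnamed mesenchymal clusters had at least 50 cells in both segments. By counting interval, *Meis1* was lower distally in 6 of 8, *Meis2* in 7, *Meis3* in 6 and *Pbx2* in 3, whereas *Pbx3* was higher distally in 7 of 8. Different clusters held most of a class in the segments: cluster 7 proximally and 3 distally for dermal fibroblast-like cells, 1 and 12 for fibroblast-like cells, and 8 and 14 for chondrocyte-like cells. Within clusters that both segments shared, the direction of *Pbx3* was mixed. It was at 25.6 CPM proximally and 17.0 distally (91 cells) in the fibroblast-like cluster 1, and at 42.4 and 35.1 in cluster 6. In clusters 13 and 19 it was higher distally, at 46.2 and 71.0 CPM and at 50.2 and 71.7. A cluster led by muscle fibre genes (2742 proximal and 175 distal cells) was left unnamed and stayed in the mesenchymal sums. The unnamed pool that holds it had 4066 proximal and 4564 distal cells, so its make-up differed between the segments. In this cluster *Meis2* was at 30.4 CPM proximally and 37.2 distally, the reverse of the pool. In the unnamed clusters 6 and 10 it was lower distally, at 26.5 and 6.64 CPM and at 73.9 and 26.7.

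Dermal fibroblast-like cells were the highest named mesenchymal group for *Meis1* and *Meis2* in the proximal segment. *Meis1* was at 44.1 CPM there and 15.8 distally, and *Meis2* at 90.5 and 16.4. Within cluster 7, which both segments shared, *Meis2* was at 91.9 CPM in 824 proximal and 43.8 in 136 distal cells, and *Meis1* at 45.0 and 38.0. The differences of both genes within this cluster were thus smaller than over the whole class.

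Chondrocyte-like cells had the lowest distal level of all 3 Meis genes among the named mesenchymal groups. In chondrocyte-like cells, *Meis1* was at 9.41 CPM proximally and 0.578 distally (6 UMIs in 559 cells), and *Meis2* at 14.2 and 0.964 (10 UMIs). Tenocyte-like cells gave 12.4 and 1.09 CPM for *Meis1* and 25.1 and 2.78 for *Meis2*. The distal level of all 3 Meis genes was the lower one in both of these classes.

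In the proximal segment, fibroblast-like cells held the most *Meis3* among named groups, at 26.9 CPM against 5.46 distally, while their *Meis2* was at 30.9 and 2.97. In contrast to the mesenchymal groups, *Meis2* in epithelial-like cells was at 26.3 CPM proximally and 54.3 distally, and it was at 152 CPM in 65 epithelial-like cells of the E14.5 library. Pericyte-like cells had too few *Meis1* UMIs to show a difference, 8 proximally and 4 distally.

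*Pbx3* was highest in mitotic-like cells among the named groups of both segments. Mitotic-like cells were at 48.7 CPM proximally and 59.4 distally, and tenocyte-like cells at 46.7 and 49.2, the only group whose interval for the difference included 0. Chondrocyte-like cells differed most, at 21.8 CPM proximally and 41.7 distally. With the 6 named mesenchymal classes given equal weight, the levels were 33.6 CPM proximally and 43.9 distally for *Pbx3* and 39.9 and 8.13 for *Meis2*.

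At E14.5, before the limb was divided into segments, dermal fibroblast-like cells were the highest mesenchymal group for all Meis genes. *Meis1* was at 32.5 CPM in them, against 3.01 to 9.57 CPM in the other named mesenchymal groups, and *Meis2* at 73.7 against 2.56 to 19.8. *Meis3* was at 21.1 CPM against 6.78 to 8.51. The lowest *Meis2* value was that of osteogenic-like cells. *Pbx3* was highest in mitotic-like cells there too, at 53.4 CPM against 28.3 to 44.4.

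**Figure D5:**
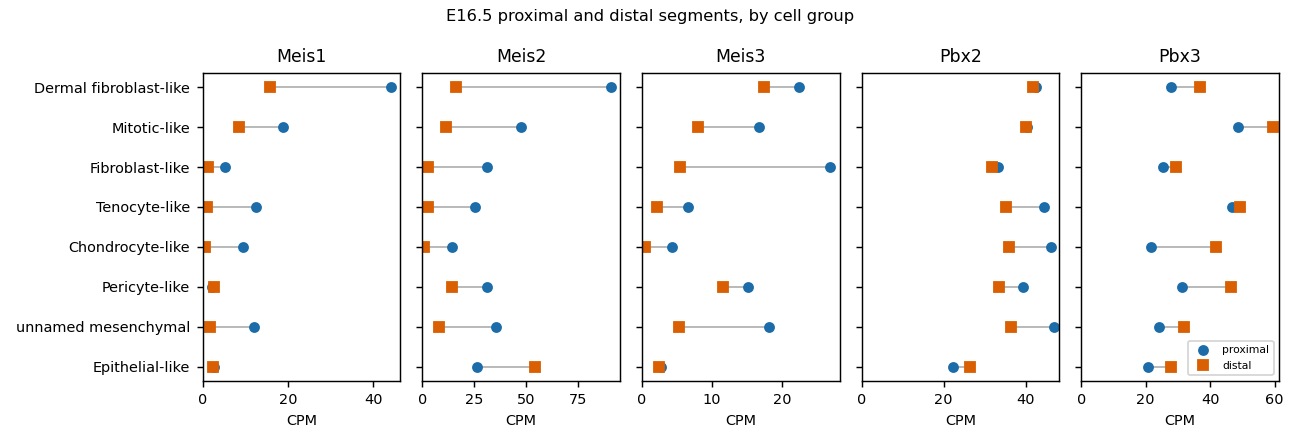
CPM of each member (horizontal axis, from 0) in 8 cell groups (vertical axis) of the E16.5 proximal (circles) and distal (squares) libraries, joined by a line within each group. *Meis2* is higher proximally in every group but epithelial-like cells, and *Pbx3* is higher distally in every group, though by little in tenocyte-like cells (46.7 and 49.2).

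The genes whose level followed each member most closely were sought over 15 combinations of cell group and E16.5 library, among 5142 genes. *Hoxc6*, a Hox gene of anterior and middle body levels, followed *Meis2* best with r = 0.90 on log2(CPM + 1), then *Psmg1* (0.88) and *Nit2* (0.88). For *Meis1* these were *Fth1* (0.86), *Tmem218* (0.85) and *Sap30l* (0.83), and for *Meis3* *Cnrip1* (0.92), *Fth1* (0.91) and *Tmem256* (0.89). *Nasp*, a histone chaperone, led for *Pbx3* (0.89), ahead of *Wdr82* (0.85) and *Psip1* (0.85), and *Znrd1* led for *Pbx2* (0.91), ahead of *Cdc26* (0.89) and *Ngfrap1* (0.89). Among the members, *Meis1* and *Meis2* had r = 0.67 and *Meis2* and *Pbx3* -0.31. These combinations share 2 libraries and 1 depth each, and the values are descriptions.

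Other genes of the pathway were counted in the same fits, in lists chosen for their roles. Of 13 other TALE and Pbx-binding genes, 11 were tested between sorted and whole limb cells at E11.5, and 3 were higher, 6 lower and 2 not called by edgeR, with a median log2 fold change of -0.25 against 0.01 over all genes. The 9 called stand beside 53.3% of all genes called in this fit, and DESeq2 called 5 and limma-voom 6 of the 11. The higher ones included the tendon regulator *Mkx* (2.06, edgeR adjusted p = 1.18e-56) and *Pbxip1* (0.78), which encodes a Pbx-binding protein. Among the lower ones were *Irx3* (-2.30) and *Irx5* (-2.21), which act in the proximal limb bud.

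Of 15 genes of retinoic acid metabolism and response, 12 were tested, of which 5 were higher, 4 lower and 3 not called, beside the same 53.3% of all genes, and the median log2 fold change was 0.0040 against 0.014 over all genes. Among the higher ones were *Aldh1a2* (3.02) and *Aldh1a3* (2.18), which encode enzymes that make retinoic acid, and among the lower ones were *Cyp26b1* (-0.64, edgeR adjusted p = 7.58e-10), which encodes an enzyme that degrades it, and *Crabp1* (-0.41). Of 11 genes listed as distal or FGF response genes, 3 were higher and 6 lower (53.3% called over all genes). *Msx2* (-3.82) and *Lhx9* (-3.84) were lower and *Spry2* (1.89) was higher. In whole 1, *Msx2* was at 264 CPM in Hox13-positive and 263 in negative cells, and *Lhx9* at 198 and 256. In sorted E11.5 cells the same classes had 91.2 and 16.9 CPM of *Msx2* and 70.2 and 17.6 of *Lhx9*. Among Hox-negative cells alone, sorted cells differed from whole limb cells by -4.04 for *Msx2* and -4.02 for *Lhx9*. In cells negative for the Hox genes the counts were 4 higher and 4 lower of 11 TALE genes, 5 and 6 of 12 retinoic acid genes, and 4 and 6 of 11 distal genes, where 48.9% of all genes were called.

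Between Hox13-positive and negative cells, none of the 11 TALE genes and none of the 12 retinoic acid genes was called by edgeR, beside 2.93% of all genes. At an unadjusted p under 0.05, edgeR gave 1 gene in each list, *Irx3* with a log2 fold change of -2.02 (edgeR adjusted p = 0.0690) and *Crabp1*, which encodes a retinoic acid binding protein. DESeq2 called 1 TALE gene, *Irx3*, and 0 retinoic acid genes, and limma-voom called 0 TALE genes and 1 retinoic acid gene, *Crabp1*. Of the 11 distal genes, *Msx1* (2.17 ± 0.41, adjusted p = 0.0175) and *Lhx2* (1.17 ± 0.23, adjusted p = 0.0214) were higher in Hox13-positive cells in the edgeR fit and 9 were not called. *Msx1* was at 662 CPM in Hox13-positive and 400 in negative cells of whole 1, and at 307 and 30.8 in the sorted E11.5 library. The median log2 fold changes were -0.22, 0.14 and 0.13 for the 3 lists, against -0.02 over all genes.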

How the data were processed

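Raw UMI counts of every gene in each cell were deposited, which the authors made with the Cell Ranger count pipeline on a modified mm10 reference. Per the file headers, versions 3.0.2 and 6.0.1 were used for sorted libraries, while the headers of the whole limb libraries name none and the study's reporting summary states a single, different version for all single-cell data. Groups came from the labels. Cells were kept at 3000 or more UMIs, the filter of the study, and at most 10% mitochondrial UMIs, a limit set here. Clusters were made at Leiden resolution 1 (scanpy 1.11.5) without the members, some related TALE genes, Hox genes, *Hic1* or transgenes, and the naming rule was revised after clusters had been seen. Doublets were kept for the main values, and an alternative removed the barcodes with the highest scrublet scores at a rate set by the number of barcodes. UMI counts were summed per library and tested in R 4.3.3 by the edgeR 4.0.16 quasi-likelihood method after TMM scaling and filterByExpr, at a Benjamini-Hochberg adjusted p under 0.05. Alternatives used limma-voom (limma 3.58.1) and DESeq2 1.42.0. The edgeR standard errors were derived from the p-value of each fit, which makes them imprecise for fold changes near 0, and DESeq2 and limma-voom gave their own. Poisson and Clopper-Pearson binomial 95% intervals cover counting error only. On simulated data with 200 genes changed 4-fold, edgeR recovered 97% in the comparison of sorted and whole limb cells (14849 genes, 11 false calls) and 96.5% in that of Hox classes (13527 genes, 19 false calls). The simulation used the spread fitted to the same libraries and held no smaller changes, so it says nothing about recovery of these. All members are named in every comparison, examples of the 3 lists from among genes that passed the test or reached 50 CPM, and the 3 genes most like each member. The members and lists were chosen with earlier results of these data known. Of the TALE list, 1 gene is not reported here.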

Additional observations from a re-analysis of the deposited data

Results flagged for a closer look

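The difference between Hox13-positive and Hox11/13-negative cells was itself different between whole limb and sorted libraries for *Meis2*, with an edgeR interaction of -1.59 on the log2 scale (adjusted p = 0.0154), and for *Pbx3*, with -1.29 (adjusted p = 0.000833). Both genes were lower in Hox13-positive cells of whole 1 and whole 2 (*Meis2* by -3.37 and -2.90, *Pbx3* by -1.57 and -1.55). Without the proximal E16.5 library, which has 59 Hox13-positive cells, the interaction was -1.40 for *Meis2* and -1.30 for *Pbx3*. In sorted E11.5 cells, of the same stage and kit, *Meis2* differed by -1.24 (interval -1.81 to -0.72) and *Pbx3* by -0.35 (-1.04 to 0.25). Both values rest on 53 Hox13-positive cells. The other sorted libraries are of later stages and in part of the v3 kit, and the part of stage, sort and kit was not tested.

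Among cells left out of the mesenchymal sums, a cluster of 55 cells in whole 1 that was led by the platelet genes *Pf4* and *Ppbp* had *Meis1* at 82.6 CPM (39 UMIs, interval 58.7 to 113). The same cells had *Meis3* at 19.1 CPM from 9 UMIs (interval 8.71 to 36.2), the highest *Meis3* level of any cluster of this library. Both values lay above the mesenchymal levels of whole 1, 31.1 and 1.63 CPM.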

How the results depend on the processing

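Members were stable in 219 of 240 alternatives that bear on a test, which meant that they kept direction and side of the threshold. For alternatives without a p-value it meant the same direction and a log2 fold change within the standard error of the main fit. Counts of called genes stayed within 1.5 times in 25 of 44. The stage, segment and cell type ratios were stable in 75 of 90, 25 of 35 and 18 of 20.

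Between sorted and whole limb cells at E11.5, DESeq2 called 4828 genes and edgeR with no filter on low counts 4439. With no filter, *Meis2* (-0.60), *Pbx2* (-0.34) and *Pbx3* (-0.46) lost their calls, as did *Meis3* (0.91) by DESeq2, while *Meis1* gained one with thinned cells (-0.46). It also gained one without mitotic-like cells (-0.30), but this left out 5 sorted and 488 and 573 whole limb cells, while clustering by stage put 1301 sorted E11.5 cells in a mitotic-like cluster, so it does not remove mitotic cells from both arms. Leaving out whole 1 or whole 2 gave -0.71 to -0.45 for *Meis2*, with no test. In Hox11/13-negative cells DESeq2 called 3127 genes and edgeR with no filter 3861. There *Meis3* was called at a minimum of 5000 UMIs (0.57), and *Pbx2* with thinned cells (-0.30) or Hox calls on all UMIs (-0.25).

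Between Hox classes, 402 genes became 683 by DESeq2, 791 by limma-voom, 729 with no filter, 198 with doublets removed, 836 with Hox calls on all UMIs, 129 with at least 2 Hox13 UMIs, 5927 in the whole limb libraries alone and 75 in the libraries over 5% Hox13-positive. Leaving out 1 library gave 131 (without E14.5) to 571 genes, with 229 without sorted E11.5, 221 without whole 1, 197 without whole 2, 246 without E12.5 and 218 without E13.5. Without the library as replicate block edgeR called 0 genes, and *Meis1* (-2.29), *Meis2* (-2.14) and *Meis3* (-0.99) lost their calls. No paired analysis was possible because the other comparisons have 1 sorted library and numbers only for the whole limb. *Meis3* lost its call in the libraries over 5% (-1.31). *Pbx2* turned to 0.0090 in the whole limb alone and to 0.0029 in the libraries over 5%, neither called. *Pbx3* gained calls by DESeq2 (-0.61), with no filter (-0.68) and in the whole limb alone (-1.54), and over left-out libraries it ran from -0.78 (called, without E16.5 distal) to -0.49.

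Thinning cells to 3000 UMIs moved the E13.5 over E11.5 ratio to -1.87 for *Meis1*, -1.67 for *Meis2* and -0.063 for *Pbx2*, that of E12.5 over E11.5 to -1.10 for *Meis1* and -1.26 for *Meis2*, and that of E14.5 over E13.5 to 0.10 for *Meis2* and 0.26 for *Meis3*. Shares of cells with a UMI gave -1.75 (*Meis1*) and -1.03 (*Meis2*) for E13.5, -0.96 (*Meis1*) and -0.78 (*Meis2*) for E12.5, and 0.054 (*Meis2*) and 0.34 (*Pbx2*) for E14.5. A minimum of 5000 UMIs gave -2.33 and 0.44 for *Meis2* at E13.5 and E14.5. Over all filtered cells, distal over proximal was -1.50 for *Meis1*, -1.94 for *Meis2*, -1.16 for *Meis3*, -0.10 for *Pbx2* and 0.35 for *Pbx3*. Equal weight per cell type gave -2.30 for *Meis2*, -1.03 for *Meis3* and 0.38 for *Pbx3*, thinning 0.44 for *Pbx3* and the share of cells 0.42. The ratio of dermal fibroblast-like over chondrocyte-like cells became 2.88 for *Meis2* without doublets and 0.82 for *Pbx3* at resolution 0.5. The causes were not tested. Depth limits *Meis3* at E11.5 and the Hox13-positive classes with few UMIs.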

Other observations

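Within the proximal E16.5 library, a cluster of 109 cells led by *Car3*, *Agt* and *Fabp4*, genes known from fat tissue, had the highest *Meis2* level of any cluster there, 129 CPM from 310 UMIs. A cluster of 253 cells led by *Rit2*, *Coch* and *Ednrb* had the lowest *Meis1* and *Meis2* levels of that library, 0.898 CPM each from 4 UMIs, whereas *Pbx2* in the same cells was at 48.7 CPM and *Meis3* at 10.6. In the E14.5 library, a cluster of 1546 cells had *Meis1* at 0.474 CPM and *Meis2* at 0.316, the lowest of that library, with the summed *Hoxa13* and *Hoxd13* level at 214 CPM. Another E14.5 cluster of 691 cells, with a Hox13 level of 339 CPM, had *Meis2* at 6.11 CPM, *Meis3* at 2.64 and *Pbx3* at 48.9.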
